A study of Mus musculus with 8 samples.

Results

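Keratin-associated protein genes (Krtap genes) were examined in wound scars of mice, as the genes on array rows that carry a single gene entry with a symbol of Krtap and a digit. They numbered 37 of the 20259 genes measured, in 21 subfamilies, and where the array has more than 1 row for a gene, the mean of its log2 values was taken. A row that carries the symbol Krtap16-3 for 2 Entrez genes was counted among the rows of several genes and is not a member. The scars are whole-skin biopsies taken at an early stage after wounding, in a study of wound-induced hair neogenesis, the growth of new hair follicles in the centre of a large wound. The design set mice of a poorly regenerating strain (low 1 to low 4) beside mice of a highly regenerating strain (high 1 to high 4), on 4 Affymetrix exon arrays per group. Each array was taken as 1 mouse, which the sample titles do not state, and the p-values below measure the spread between these arrays. Strain names, age and day of biopsy were not found in the labels, and strain and regeneration level cannot be told apart in this design. Expression was deposited on the log2 scale, where a difference of 1 is a doubling, for transcript clusters, which are groups of probes for 1 locus. In a whole biopsy, fewer hair-forming cells and less RNA per cell cannot be told apart.

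Keratin-associated proteins fill the space between the keratin filaments of the hair shaft and bind them into a hard fibre, largely through disulfide bonds. Their genes are small, lie in tandem clusters and are switched on late in the cells that become the cortex and cuticle of the shaft, while the follicle is growing. By composition they are grouped into high sulfur, ultra-high sulfur and high glycine-tyrosine proteins, and this published grouping by subfamily was used to order the genes.

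Before any comparison, arrays low 3 and low 4 stood apart from the others in muscle. Averaged over the 18 measured of 20 muscle markers, low 3 reached 9.41 and low 4 reached 10.12 (log2), against 6.90 and 6.97 in the other low arrays and 6.86 to 7.04 in the high arrays. A list of adipocyte markers (9 of 10 measured) also averaged 8.10 and 8.19 there, against 6.62 to 7.21 in the 6 other arrays. Y-linked Eif2s3y lay at 7.57 to 7.70 in low 2, low 4 and high 4 and at 4.08 to 4.76 in the rest, which is 2 low arrays and 1 high array. Xist, which silences an X chromosome in females, was at 9.60 in low 2 and 10.05 in low 4, between its level of 6.11 in high 4 and that of 12.74 to 12.93 in the 5 other arrays. Low 2 and low 4 thus held both signals, which a single male or female mouse would not usually give, and whether each of them is the RNA of 1 mouse was not tested. The part of muscle, fat or the Y-linked signal in the results below was not tested. Counts for Krtap genes, keratins, hair matrix regulators and shaft hardening genes are given with and without these arrays. Those for markers of other cells are given with and without low 3 and low 4 only. Markers of skin were present in all arrays, among them Krt5 at 12.86 to 13.17, Krt10 at 12.41 to 12.75 and Col1a1 at 13.11 to 13.34.

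Promoters are shown first for 5 genes on which the results turn. Krtap24-1 and Krtap4-13 are the genes that passed the test, Krtap11-1 is a gene whose groups also did not overlap, and Krtap19-1 and Krtap19-4 are genes that followed another order of the arrays. The windows run from 250 bases before to 50 bases after the RefSeq start on GRCm38.p6, all on the minus strand, at chr16:88612230-88612529, chr16:89571134-89571433, chr11:99809847-99810146, chr16:88869361-88869660 and chr16:88885040-88885339. Capitals mark TATAAA, the common form of the TATA box that places the start of transcription, its longer form TATATAA, and CTTTGA, a core that Lef1 and Tcf factors can bind, on either strand.
Krtap24-1: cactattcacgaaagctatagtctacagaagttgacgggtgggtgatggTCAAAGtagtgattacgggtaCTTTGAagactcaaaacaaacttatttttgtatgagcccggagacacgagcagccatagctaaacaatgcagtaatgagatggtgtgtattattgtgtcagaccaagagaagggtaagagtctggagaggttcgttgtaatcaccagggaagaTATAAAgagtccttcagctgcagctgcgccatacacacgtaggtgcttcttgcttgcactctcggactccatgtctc
Krtap11-1: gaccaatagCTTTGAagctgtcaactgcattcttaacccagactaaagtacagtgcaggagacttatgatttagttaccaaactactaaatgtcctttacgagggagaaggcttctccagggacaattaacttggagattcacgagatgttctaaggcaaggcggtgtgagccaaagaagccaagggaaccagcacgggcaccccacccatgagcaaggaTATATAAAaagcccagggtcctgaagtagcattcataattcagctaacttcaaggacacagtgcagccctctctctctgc
Krtap4-13: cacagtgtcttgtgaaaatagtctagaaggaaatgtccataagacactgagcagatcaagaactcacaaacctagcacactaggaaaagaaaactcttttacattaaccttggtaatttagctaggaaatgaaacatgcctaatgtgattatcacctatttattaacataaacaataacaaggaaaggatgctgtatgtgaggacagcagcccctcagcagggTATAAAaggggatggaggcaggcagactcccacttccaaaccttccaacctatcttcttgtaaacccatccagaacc
Krtap19-1: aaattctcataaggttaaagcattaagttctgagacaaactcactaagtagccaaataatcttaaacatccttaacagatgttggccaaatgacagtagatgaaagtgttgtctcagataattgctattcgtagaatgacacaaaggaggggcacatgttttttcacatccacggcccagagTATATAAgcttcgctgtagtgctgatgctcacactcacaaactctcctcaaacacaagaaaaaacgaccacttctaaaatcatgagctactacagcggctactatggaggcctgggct
Krtap19-4: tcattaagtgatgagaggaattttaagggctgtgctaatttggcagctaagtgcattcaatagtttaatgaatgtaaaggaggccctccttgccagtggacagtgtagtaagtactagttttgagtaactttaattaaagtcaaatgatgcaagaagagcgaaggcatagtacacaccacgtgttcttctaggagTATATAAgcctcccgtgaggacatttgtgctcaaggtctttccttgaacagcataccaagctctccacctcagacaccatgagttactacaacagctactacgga
Counted from the start, with bases before it negative, the TATA motif began at -27 in Krtap24-1 and Krtap4-13 and at -28 in Krtap11-1. In Krtap19-1 and Krtap19-4 the longer form stood at -68 and -55 from the annotated start. These 5 genes were chosen by their results, so their positions do not stand for the family. Of the 31 members with a promoter in the table, 25 (80.6%) held TATAAA and 30 (96.8%) held TATAAA or TATATAA, with the forms overlapping in 9. The shares over all 32851 promoters of the table were 13.6% and 15.1%. On the gene's own strand, TATAAA began between -40 and -20 in 19 members (61.3%), against 1.99% of all promoters. Krtap19-9b, which like some genes here is named outside the rule for named genes, had the order of Krtap19-1 and held TATAAA in that range. The other members with that order and a promoter, Krtap19-1 to Krtap19-5, Krtap21-1 and Krtap6-2, held none there. Of members without that order, Krtap5-3, Krtap5-4, Krtap13, Krtap13-1 and Krtap14 held none there, and all others with a promoter did. A link between this position and the order was not tested. CTTTGA was found in 7 members (22.6%), against 16% of all promoters. The longer form was added after the Krtap19 windows were seen, so the share with either form was drawn in part from these promoters. Except for the range from -40 to -20, matches were counted on either strand anywhere in the window. Members of 1 subfamily are paralogs, so their promoters are not independent. These are matches of letters, not measured binding.

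The estimated difference was below 0, meaning a lower level in the high-regeneration scars, for 36 of 37 Krtap genes, against 42.8% of all genes. The median difference was -1.11 on the log2 scale, where the median over all genes was 0.029. It was -0.53 without low 2, -1.69 with array weights and -2.46 without low 3 and low 4. Yet 2 members fell and 0 rose at an adjusted p under 0.05 (limma, two-sided, Benjamini-Hochberg over all genes), against a background of 2.47% of all genes lower, 1.86% higher and 4.32% in either direction. Between 0 and 3 members passed when a single array was left out. At an unadjusted p under 0.05, 15 members were lower, where 10.1% of all genes were, and 0 were higher. All high arrays lay below all low arrays in 5 members, where 7.29% of all genes had this order, and above them in 0 members, where 7.19% did.

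Some markers of other cells of the follicle and skin, and of dividing cells, were also lower in the high-regeneration scars in the same fit. Of 13 melanocyte markers 11 fell, with list means of 7.58 to 7.97 in the low and 6.61 to 7.01 in the high arrays. Of the sebaceous gland list 6 of 10 measured genes fell (9.29 to 9.49 against 8.65 to 9.05), of the cell cycle list 7 of 19 (8.29 to 8.48 against 7.86 to 8.12), and of the bulge and outer root sheath list 4 of 11 (9.63 to 9.77 against 8.93 to 9.30). The 4 of the bulge and outer root sheath list were Krt75, Lhx2, Krt79 and Tcf7l1. All 11 estimates of that list were below 0. Its stem cell markers Lgr5 (-1.02, limma adjusted p = 0.0563), Krt15 (-0.74, 0.0823), Lgr6 (-0.37, 0.134) and Sox9 (-0.29, 0.166) did not pass. The 2 estimates nearest to 0 were those of Cd34 (-0.019, limma adjusted p = 0.938) and Nfatc1 (-0.0022, adjusted p = 0.987). All these genes are named after their values were seen. Dermal papilla markers had 2 of 10 lower. No gene of these 5 lists rose (limma, 1 at an unadjusted p under 0.05, in the sebaceous gland list). The lists of the interfollicular epidermis and of scar fibroblasts had 0 of 9 and 1 of 9 lower, and 0 higher. Without low 3 and low 4, 7 of 13 melanocyte, 1 of 10 sebaceous gland and 0 of 19 cell cycle genes were lower. In that fit 2 of 11 bulge and outer root sheath and 1 of 10 dermal papilla genes were lower. The epidermis list had 0 of 9 and the fibroblast list 1 of 9 lower there. No gene of these lists was higher, and 0.977% of all genes were called lower. That fit has 2 low arrays. With all arrays and in that fit, the median differences were -0.685 and -0.726 for melanocyte and -0.452 and -0.456 for sebaceous gland genes. They were -0.396 and -0.356 for cell cycle genes, with all 19 estimates below 0 in both fits. For bulge and outer root sheath genes they were -0.369 and -0.347, and for dermal papilla genes -0.297 and -0.126. The part of these cells in the Krtap differences was not tested.

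**Figure D1:**
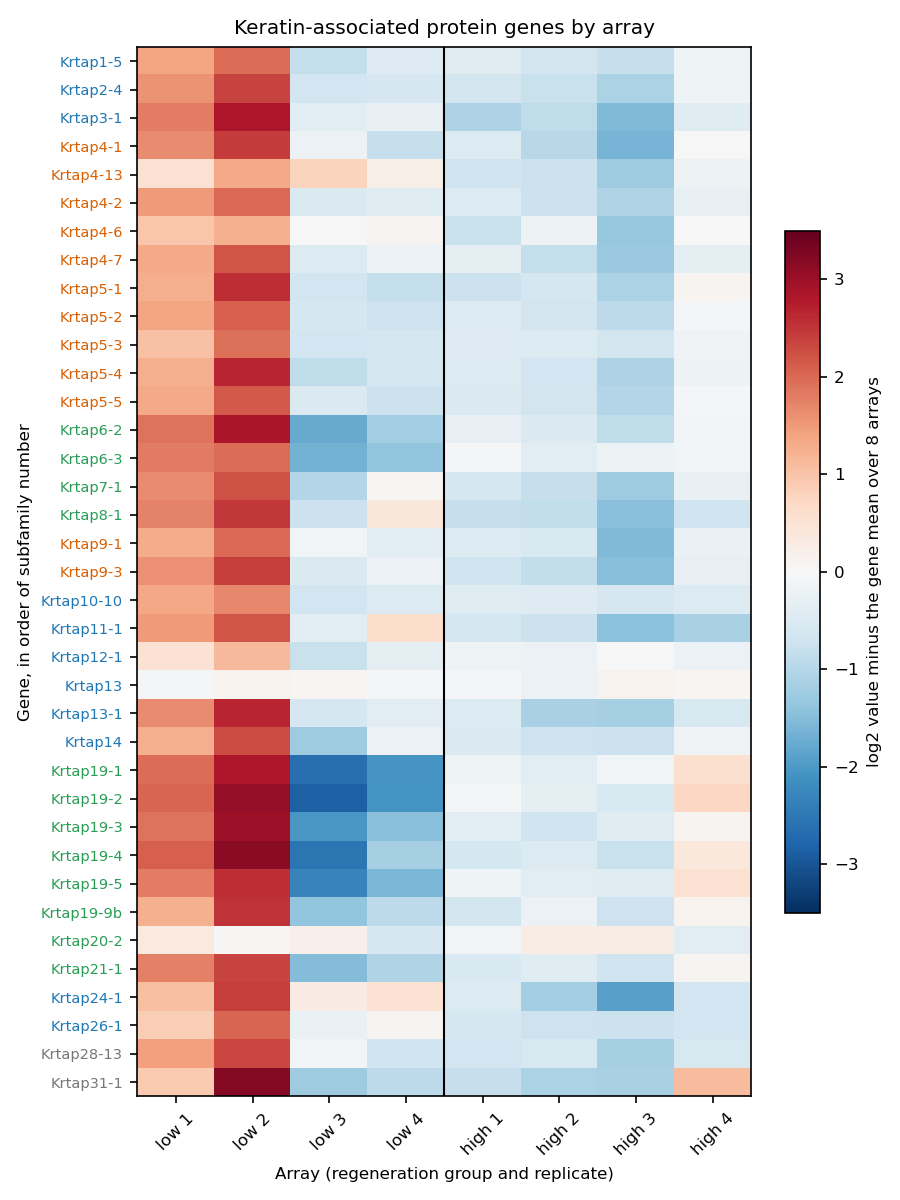
Log2 value of each Krtap gene in each of the 8 arrays minus the gene's own mean over the arrays (colour), with genes in order of subfamily number and arrays by group. Gene names are blue for high sulfur, orange for ultra-high sulfur, green for high glycine-tyrosine and grey for unclassed proteins. Low 2 is the highest array in 36 of 37 genes, and low 3 and low 4 are the lowest in the green genes of subfamilies 6, 19 and 21.

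The spread among the low arrays was far wider than among the high arrays. The median standard deviation (SD) over the 37 genes was 1.42 in the low group and 0.38 in the high group, against 0.13 and 0.10 over all genes. The low group had the larger SD in 36 of 37 members, and in 63.2% of all genes. Low 2 was the highest of the 8 arrays in 36 members and low 1 the second in 33. Both lay above all 6 other arrays in 33 of 37 members, a pattern that 5.27% of all genes had. Within the high group, high 3 was the lowest array in 31 members and high 4 the highest in 26.

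Of the 2 genes that passed, Krtap24-1 belongs to a family of high sulfur proteins known from the hair cuticle in humans. Its log2 values were 9.10, 10.45, 8.32 and 8.54 in low 1 to low 4 and 7.55, 6.84, 6.14 and 7.36 in high 1 to high 4. All 4 high arrays lay below all 4 low arrays. The gene fell by 2.13 ± 0.46 (SE) on the log2 scale, a 4.37-fold lower level in high regeneration (limma, adjusted p = 0.0383, n = 4 per group). Leaving out any single array other than low 3 took it above the threshold, with adjusted p-values of 0.0502 to 0.103. The difference itself stayed between -2.39 and -1.68 when single arrays were left out.

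Krtap4-13, which encodes an ultra-high sulfur protein, had the smallest adjusted p of the family. Its values were 8.49, 9.28, 8.75 and 8.16 in low 1 to low 4, and 7.26, 7.22, 6.71 and 7.78 in the high arrays. Low 3 and low 4 stood with low 1 and low 2 here, and the groups did not overlap. Krtap4-13 fell by 1.43 ± 0.26 (SE), from 8.67 ± 0.47 (SD, n = 4) to 7.24 ± 0.43 (limma, adjusted p = 0.0215), which is 2.69-fold. It did not pass without low 3 (adjusted p = 0.057), high 2 (0.0505) or high 3 (0.0588).

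The groups were also separate in Krtap11-1, Krtap3-1 and Krtap26-1, all of high sulfur families, without passing the adjusted threshold. Krtap11-1 was at 10.85, 11.56, 8.96 and 9.97 in the low arrays and at 8.73, 8.60, 7.91 and 8.22 in the high arrays. The difference was -1.97 ± 0.48 (SE), at a limma adjusted p of 0.0534. Krtap3-1 was at 10.17, 11.23, 7.98 and 8.12, against 7.30, 7.51, 6.85 and 7.95, so that low 3 and high 4 almost met. Its difference of -1.97 had an SE of 0.67 and an adjusted p of 0.134. Krtap26-1, of a family found in the human hair cuticle, was at 8.31, 9.50, 7.21 and 7.55 in low scars and showed almost no spread in high scars, at 6.70 to 6.83 (difference -1.38 ± 0.41, adjusted p = 0.0972).

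In Krtap1-5 and Krtap10-10 of the same class low 3 and low 4 lay in or near the range of the high arrays. Krtap1-5 had values of 13.27 and 13.85 in low 1 and low 2, 11.05 and 11.44 in low 3 and low 4, and 11.08 to 11.74 in the high arrays. Krtap10-10, of a family known from the human hair cuticle, was at 11.32 in low 2, with low 1 next to it, at 8.98 and 9.15 in low 3 and low 4, and within 9.06 to 9.22 in the high arrays. Their estimates were -1.02 ± 0.57 and -0.95 ± 0.49 (SE), with limma adjusted p-values of 0.322 and 0.291. Krtap2-4 was at -1.34, with 4 rows that ranged from -1.90 to -1.06, and Krtap14 at -1.04. Krtap12-1 differed little (-0.28 ± 0.35), with low 3 at 6.67 and low 4 at 7.13, below the high range of 7.22 to 7.46. Over all 11 high sulfur genes the median difference was -1.34, with 4 members in which low 3 and low 4 both exceeded all high arrays. The exception in spread was Krtap13, named here outside the rule for named genes after its values were seen, which stayed within 3.99 to 4.33 in all 8 arrays.

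Ultra-high sulfur genes, whose proteins are the richest in cysteine, had a median difference of -1.25 over 12 members, of which 1 fell. Krtap4-1 was at 12.41, 13.19, 10.55 and 9.95 in low 1 to low 4 and at 10.27, 9.80, 9.12 and 10.75 in the high arrays. Here low 3 and low 4 lay inside the high range. The 5 Krtap4 genes ran from -1.54 (Krtap4-1) to -1.14 (Krtap4-6), the 5 Krtap5 genes from -1.21 (Krtap5-4) to -0.85 (Krtap5-3), and the Krtap9 genes were at -1.66 and -1.40. Krtap5-4 had 9.08 and 10.47 in low 1 and low 2, 6.92 and 7.20 in low 3 and low 4, and 6.73 to 7.64 in the high arrays. Low 1 and low 2 were above all other arrays in 11 of the 12 genes, with Krtap4-13 the exception. These paralogs are close in sequence and can share signal on the array.

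High glycine-tyrosine genes of subfamilies 6, 19 and 21 followed another order of the arrays. In these genes, 9 of the 12 members of the class, low 3 and low 4 both lay below all 4 high arrays. The same was found in 1 of 11 high sulfur and 0 of 12 ultra-high sulfur genes and in 20.8% of all genes. Genes of 1 subfamily are paralogs that can share signal on the array, so the 9 are not independent. Over the whole family the count was 10 of 37, a share near that background. Krtap19-1 was at 10.48 and 11.35 in low 1 and low 2, at 5.88 and 6.47 in low 3 and low 4, and at 8.37, 8.13, 8.43 and 9.08 in high 1 to high 4. The high arrays therefore stood between both sets of low arrays. The group means of Krtap19-1 were 8.54 ± 2.77 and 8.50 ± 0.40 (SD, n = 4), with a difference of -0.038 ± 1.13 (SE, limma adjusted p = 0.987). The 95% interval of that difference, -2.58 to 2.50, holds large changes in either direction.

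Krtap19-4 had the same order, at 11.84, 12.91, 7.20 and 8.58 in the low arrays and 9.13, 9.29, 8.98 and 10.12 in the high arrays. All 6 Krtap19 genes, both Krtap6 genes and Krtap21-1 had it too. Across these genes and Krtap12-1, low 3 lay 0.55 to 2.34 and low 4 lay 0.089 to 1.67 below the lowest high array. The 6 Krtap19 genes had a median difference of -0.46 and a median SD among low arrays of 2.58.

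Krtap7-1 and Krtap8-1, single-member subfamilies of the same class, did not share that order. Krtap8-1 was at 11.82, 12.56, 9.35 and 10.50 in the low arrays and at 9.28, 9.22, 8.62 and 9.38 in the high arrays. Low 4 was thus above all high arrays and low 3 within their range. Krtap8-1 differed by -1.93 ± 0.59 (SE, adjusted p = 0.103), and Krtap7-1 by -1.46 ± 0.63 (adjusted p = 0.218). Krtap20-2 was the member with an estimate above 0, at 0.018 ± 0.21, and all its values lay between 5.13 and 6.08. Both Krtap20-2 and Krtap13 were below the 25th percentile of gene means, which 35 of 37 members passed, and without detection calls their values cannot be told from background.

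**Figure D2:**
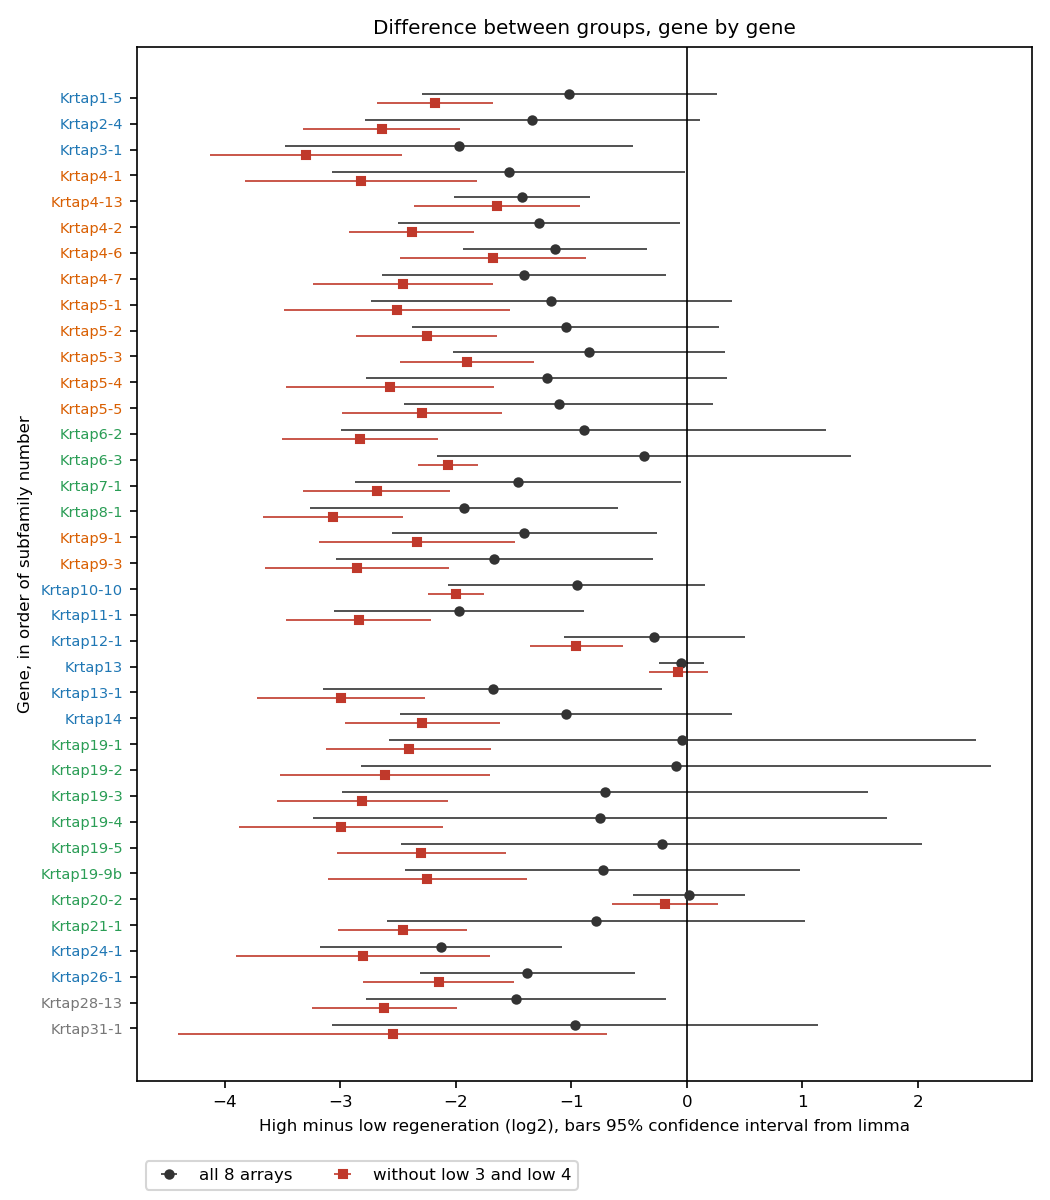
High minus low regeneration on the log2 scale for each Krtap gene, from all 8 arrays (dark circles) and without low 3 and low 4 (red squares), with 95% confidence intervals from limma. Gene names are coloured by class, blue for high sulfur, orange for ultra-high sulfur, green for high glycine-tyrosine and grey for unclassed. Krtap19-1 and Krtap19-4 are among the genes with the widest intervals with all arrays, and without low 3 and low 4 all 37 estimates lie below 0.

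The 2 unclassed members behaved differently from each other. Krtap28-13, the member on chromosome 1, was at 9.62, 10.53, 8.08 and 7.49 in the low arrays and at 7.03 to 7.63 in the high arrays, with a difference of -1.48 ± 0.58 (SE, limma adjusted p = 0.179). Krtap31-1 was at 8.56, 10.86, 6.39 and 6.72 in low 1 to low 4, and at 6.84, 6.54, 6.52 and 8.75 in high 1 to high 4. Its high 4 value lay above that of low 1, which no other member showed except the flat Krtap13.

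Leaving out the muscle-rich low 3 and low 4 changed the count of calls more than any other setting tried. With low 1 and low 2 against the 4 high arrays, 32 of 37 Krtap genes fell and 0 rose (0 higher at an unadjusted p under 0.05 too), while 0.977% of all genes were called lower and 0.627% higher. The median difference was then -2.46, and the called genes ranged from -3.30 (Krtap3-1) to -0.96 (Krtap12-1). Krtap10-10 had the smallest adjusted p among the genes named by the rule, at 0.000781. The class medians came close to each other, at -2.29 for high sulfur, -2.36 for ultra-high sulfur and -2.53 for high glycine-tyrosine genes. Krtap19-1 was at -2.41 (adjusted p = 0.0172) and Krtap19-4 at -2.99 (0.0172). The 5 members that did not pass were Krtap4-13 (adjusted p = 0.0524), Krtap4-6 (0.0696), Krtap31-1 (0.188), Krtap20-2 (0.695) and Krtap13 (0.79). Low 1 and low 2 lay above all other arrays in 33 of 37 members, so the count of 32 restates that order and is no separate support. This fit has 2 low arrays, and one of these, low 2, carries Y-linked signal. Without low 2, low 4 and high 4, the arrays with that signal, 34 of 37 estimates were below 0, at a median of -1.01, and 0 members passed in limma. That fit also has 2 low arrays, low 1 and the muscle-rich low 3, with Krtap means of 10.24 and 8.02. The shares over all genes were 0.0494% lower and 0.0247% higher in that fit. At an unadjusted p under 0.05, 11 members were lower and 0 higher, where 5.35% of all genes were lower.

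Hair shaft keratins, the filament proteins that keratin-associated proteins bind, had the same direction, with a median SD among the low arrays of 0.90 for type I genes. Of 8 measured type I genes (9 listed), 2 fell and 0 rose, at a median of -1.36, and of 2 measured type II genes (7 listed), 1 fell. Krt35, an early keratin of the shaft, fell by 2.09 ± 0.28 (SE, adjusted p = 0.00757), and Krt36, also of the shaft, fell by 1.13. The cuticle keratin Krt82 fell by 1.55 ± 0.36 (adjusted p = 0.0458). In Krt35 low 3 (9.27) and low 4 (9.99) stayed above all high arrays (7.21 to 8.29). Low 3 and low 4 both exceeded the high arrays in 7 of 8 type I genes, against 5 of 37 Krtap genes and 18.4% of all genes.

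Keratins of the inner root sheath, the sleeve that moulds the growing shaft, had the largest share of called genes among the keratin lists. Of 8 genes 7 fell and 0 rose, at a median of -2.0, with Krt25 at -2.06 ± 0.25 (adjusted p = 0.00576). In 7 of 8, low 3 and low 4 lay above all high arrays. Their mean was 10.05 in low 3 and 10.54 in low 4, beside 10.42 and 11.02 in low 1 and low 2 and 8.09 to 9.18 in the high arrays. The median SD among low arrays was 0.39, against 1.42 for Krtap genes.

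**Figure D3:**
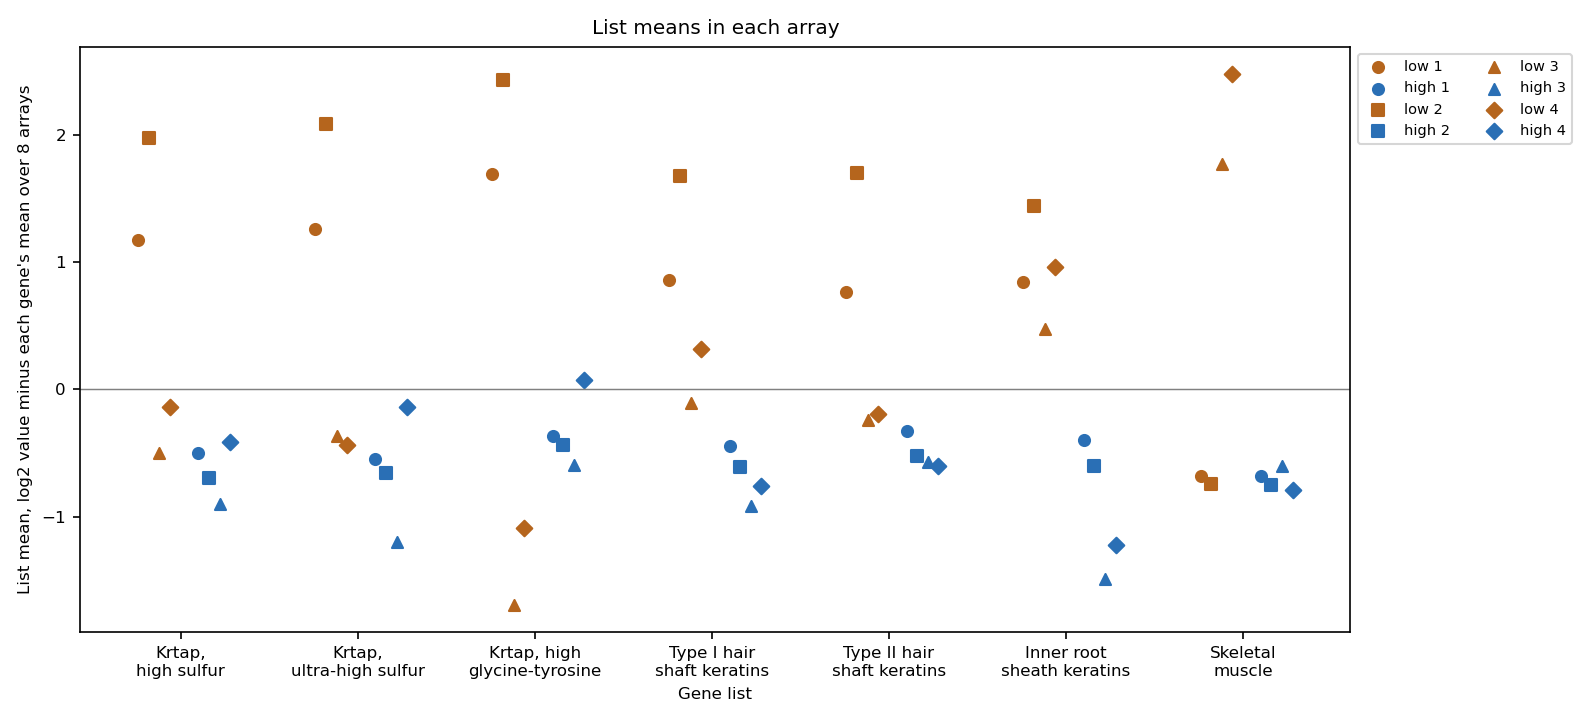
Mean of each gene list in each array, as log2 value minus each gene's mean over the 8 arrays (vertical axis), for the 3 Krtap classes, 3 keratin lists and skeletal muscle. Brown marks are low arrays and blue marks high arrays, with the shape giving the replicate. Low 3 and low 4 are lowest for high glycine-tyrosine genes, above all high arrays for inner root sheath keratins, and highest for muscle.

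The Krtap mean can be set against keratins within each array. The mean over 37 Krtap genes minus the mean over the 10 measured hair shaft keratins was 1.02 and 1.01 in low 1 and low 2, -0.23 and -0.31 in low 3 and low 4, and 0.43, 0.47, 0.43 and 1.09 in high 1 to high 4. Against the inner root sheath keratins it was -0.18 and 0.054 in low 1 and low 2, -2.03 and -2.24 in low 3 and low 4, and -0.79 to 0.39 in the high arrays. Low 3 and low 4 were thus the lowest on both measures, which compare arrays and not the abundance of the genes. Within the family, the mean of high glycine-tyrosine genes minus that of sulfur-rich genes was -1.11 in low 3 and -0.64 in low 4, and between 0.32 and 0.63 in the 6 other arrays.

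Regulators of the hair matrix, the dividing cells from which the shaft forms, had 5 of 13 measured members lower and 0 higher. Hoxc13, a homeobox factor that mice need for normal expression of hair shaft genes, fell by 1.08 ± 0.13 (SE, limma adjusted p = 0.00584). Its values were 8.72, 9.10, 8.65 and 9.21 in low 1 to low 4 and 7.98, 7.89, 7.82 and 7.65 in the high arrays. Here low 3 was the lowest and low 4 the highest of the low arrays, and the groups did not overlap. Among other homeobox factors, Msx2 fell by 0.92 and Cux1 fell by 0.59. A list of shaft hardening genes had 6 of 12 lower and 0 higher. The smallest p-values were those of Tyrp1 (-2.14), which is an enzyme of melanin synthesis rather than of hardening, the desmosomal cadherin Dsg4 (-2.69) and Padi3 (-1.49), which converts arginine in hair proteins. At an unadjusted p under 0.05, 3 members had estimates above 0, all of them transglutaminases, enzymes that crosslink proteins, named here after their values were seen. They were Tgm3 (0.55, adjusted p = 0.106), whose high arrays all lay above its low arrays, Tgm1 (0.43, adjusted p = 0.186) and Tgm5 (0.33, adjusted p = 0.137).

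Position in the gene clusters went with the order of the arrays. RefSeq (GRCm38.p6) places 16 of the members on chromosome 16, 11 on chromosome 11, 5 on chromosome 7, 2 on chromosome 10 and 1 on chromosome 1. Along chromosome 16, the 8 measured neighbours from Krtap19-1 to Krtap6-2 all had low 3 and low 4 below all high arrays, and none of the 8 other members on that chromosome did. Krtap24-1 and Krtap26-1 at one end of the row and Krtap11-1 at the other had low 3 and low 4 above all high arrays. On chromosome 11, 0 of 11 members had low 3 and low 4 below all high arrays, and 2 had them above, Krtap3-1 and Krtap4-13. Neighbours in a cluster are often paralogs of 1 subfamily, so position and subfamily cannot be told apart here.

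**Figure D4:**
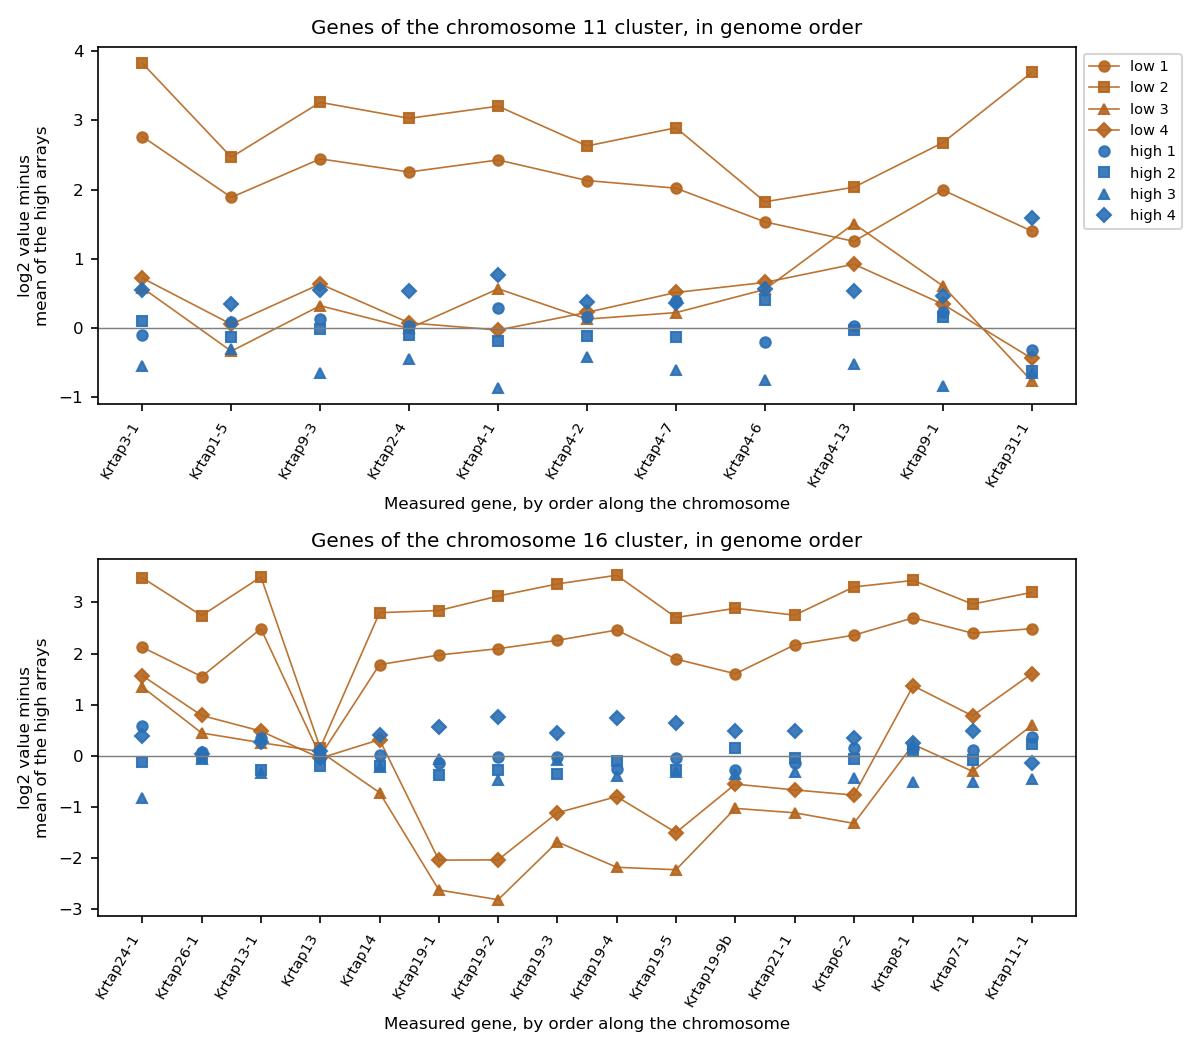
Log2 value of each array minus the mean of the 4 high arrays, for the measured Krtap genes of chromosome 11 (top) and chromosome 16 (bottom) in genome order; brown marks joined by lines are low arrays, blue marks high arrays, and lines only guide the eye. Low 1 lies within the high range at Krtap13 and Krtap31-1 and above it elsewhere, low 2 lies above it throughout, and low 3 and low 4 drop below the high arrays from Krtap19-1 to Krtap6-2.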

How the data were processed

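RNA of the scar biopsies was measured on exon arrays. Per the labels and the value range, the authors deposited log2 expression for each transcript cluster. Affymetrix Expression Console and PLIER are named in the submitters' processing notes without versions, and how they corrected background and normalized is not given in the sources used. The values run from 2.10 to 14.92, with array medians between 6.09 and 6.29, and were used as deposited. No detection calls were used. The number of arrays limits the precision.

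The platform annotation pairs 25539 of 115830 rows with 1 gene entry, 2300 with several and none with the other 87991. Krtap symbols stand on 46 rows of the first kind, averaged into 37 genes, and on 11 of the second, which were left out of the main test. The contrast of high minus low regeneration was fitted over 20259 genes with limma 3.58.1 in R 4.3.3 (with version 1.17.8 of data.table), without a filter, and checked on simulated data. The simulation gave each gene the same spread in both groups and drew genes independently. It therefore did not check the fit for Krtap genes, whose spread differed between the groups. Calls were made at a Benjamini-Hochberg adjusted p under 0.05. The labels number the arrays 1 to 4 in each group. Same-numbered arrays had correlations of deviations from their group means of -0.0829, 0.0246, -0.256 and -0.104, so the numbers were not taken as pairs.

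Genes named are those called, the extremes of subfamilies with at least 3 members and the members of single-gene subfamilies, 22 in all, up to 3 genes of other lists, and genes marked as named outside this rule, as are those given for a small count. The members and lists were chosen with earlier results of these data known. Composition classes were to be computed from proteins, which were not used here, and were taken from the published grouping by subfamily. Promoters came from RefSeq for 31 members, with none for Krtap6-3, Krtap20-2, Krtap7-1, Krtap9-1, Krtap10-10 and Krtap12-1. The longer TATA form was added after the Krtap19 windows were seen. Alternatives covered the block, normalization, variance model, array weights, filters, rows, thresholds and left-out arrays.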

Additional observations from a re-analysis of the deposited data

Results flagged for a closer look

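Among 74 sets of 4 arrays (37 genes in each group), 1 held an array far from the other 3. Krtap31-1 was at 8.75 in high 4, against 6.52 to 6.84 in the other high arrays. The gap to the nearest was 0.854 of the whole range, above Dixon's 95% critical value for 4 values, which chance passes from time to time.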

How the results depend on the processing

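The family's median difference was -1.11 and stayed below 0 in all settings, from -1.59 to -0.53 when 1 array was left out, with -1.69 under array weights and -2.46 without low 3 and low 4. The count of Krtap genes called lower was 2. It was 1 with the replicate block (Krtap11-1, adjusted p = 0.0354, while Krtap24-1 had 0.0615 and Krtap4-13 0.0808), 7 with array weights, 4 at an adjusted p under 0.10, 0 under 0.01, 32 without low 3 and low 4, 0 without low 2, low 4 and high 4, and 0 to 3 when 1 array was left out. It was 0 without high 2 or high 3, 3 without low 3 and 1 without each other array. Krtap genes called higher numbered 0 in all of these. All genes called lower and higher were 500 and 376. They were 692 (3.42% of all genes) and 534 with array weights, 593 and 212 with median centring, and 628 and 291 with cyclic loess. With the replicate block (the arrays share only a number) they were 134 and 105. They were 994 and 798 under 0.10, 74 and 58 under 0.01, and 163 to 669 and 129 to 536 with 1 array left out.

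Type I hair shaft keratins called lower were 2, then 7 with array weights, 5 under 0.10, 1 under 0.01, 8 without low 3 and low 4, 0 without low 2, low 4 and high 4, and 1 to 5 with 1 array left out. Type II keratins were 1, then 0 with the replicate block, robust eBayes, under 0.01 and without low 2, low 4 and high 4, 2 without low 3 and low 4, and 0 to 1 with 1 array left out. Inner root sheath keratins were 7, then 3 under 0.01, 6 without low 3 and low 4, and 0 without low 2, low 4 and high 4. They were 7 in every fit with 1 array left out. Matrix regulators were 5, then 3 under 0.01 and with the filter at the median, and 6 without low 3 and low 4. They were 0 without low 2, low 4 and high 4, and 5 with 1 array left out. Hardening genes were 6, then 3 under 0.01, 8 without low 3 and low 4, and 0 without low 2, low 4 and high 4. They were 5 to 6 with 1 array left out. The Krtap mean relative to hair shaft keratins was 0.23 higher in high regeneration, -0.41 without low 3 and low 4, and 0.0058 to 0.45 with 1 array left out. The cause of these shifts was not tested.

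Of the genes named by the rule, Krtap20-2 reversed to -0.19 without low 3 and low 4 and -0.12 without low 2, low 4 and high 4, where Krtap12-1 reversed to 0.023 and Krtap19-1 to 0.13. With 1 array left out, Krtap20-2 ran from -0.18 to 0.15, Krtap12-1 from -0.58 to 0.054, Krtap19-1 from -0.92 to 0.90 and Krtap19-4 from -1.73 to 0.17, and the other named genes kept their direction. The normalization, trend, row and 25th percentile settings left the Krtap count between 2 and 3.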

Other observations

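Rows that the annotation pairs with several gene entries, left out of the counts above, included 7 rows whose symbols are all Krtap, 1 of them with the symbol Krtap16-3 for 2 Entrez genes. Their differences ran from -1.15 to -0.45 with a median of -0.72, and 0 passed (limma with these rows added, 1 at an unadjusted p under 0.05). The 4 rows shared by Krtap6-1 and Krtap6-5, of the high glycine-tyrosine class, were at -0.90 to -0.51. In 4 of the 7 rows low 3 and low 4 lay below all high arrays. The Krtap16-3 row is among these, at 10.67, 11.81, 6.93 and 7.38 in low 1 to low 4 and 9.09, 8.53, 8.15 and 9.23 in high 1 to high 4, with a difference of -0.45 (adjusted p = 0.812). The 4 rows that a Krtap gene shares with another gene were at -1.41 to -0.36, and 0 passed (2 at an unadjusted p under 0.05).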
